A study of Homo sapiens with 12 samples.

Results

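The genes described here encode the proteins of the cytosolic ribosome, with their close paralogs. They were taken from the deposited table by symbol: RPL and RPS followed by a number and an optional A, X or L ending, the stalk genes RPLP0, RPLP1 and RPLP2, and RPSA. Of 56508 gene symbols, 85 matched, and 83 of these passed the filter on low values (1 or more in 3 or more of the 12 libraries), among 15456 genes that did. The core set held 77 genes, 46 of the large subunit and 31 of the small subunit, and every one passed this filter. The other 8 symbols are paralogs that end in L or L1; RPL3L and RPL10L stayed below 1 in every library, which left 6 paralogs to test.

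Messenger RNA was sequenced from the established human cell lines H82 and H211, both of small cell lung cancer and with a genotype labelled WT, with 3 libraries for each of 4 groups. Cells received ORY-1001, an inhibitor of the histone demethylase LSD1, at 1 µM, or vehicle, which the labels call PBS. The sample labels give 7 days of treatment and the treatment protocol gives 10 days, and which of them applied was not settled. No label says that replicates came from separate cultures, so the spread behind each p-value is one between libraries and may be technical.

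The large and small subunits are built in the nucleolus from these proteins and ribosomal RNA. Ribosomal protein mRNAs are among the most abundant of growing cells and have short, stable transcripts. Most begin with a cytosine and a run of pyrimidines, the 5′ terminal oligopyrimidine (TOP) motif, through which mTORC1 and the binding protein LARP1 control their translation, while MYC promotes their transcription.

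Start-site windows of 30 bases, 15 before and 15 from the RefSeq start of GRCh38.p14 on, are shown for the genes on which the results turn. Capitals mark the pyrimidine tract nearest the start, a C with at least 4 further C or T bases on the gene's strand within 10 bases of the start. A tract that runs past the window is shown up to its edge, and a window with no capitals held no such tract.
RPL13 (chr16:89560667-89560696, plus strand): ttgcggggccgCTTCCTTTCCgctcggctg
RPL32 (chr3:12840436-12840465, minus strand): ggtgaggtgaCCCTTgacctcctgggatcg
RPL9 (chr4:39458908-39458937, minus strand): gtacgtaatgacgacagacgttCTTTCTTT
RPL26 (chr17:8383179-8383208, minus strand): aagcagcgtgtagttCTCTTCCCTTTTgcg
RPL38 (chr17:74203663-74203692, plus strand): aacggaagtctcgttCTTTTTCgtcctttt
RPS21 (chr20:62387088-62387117, plus strand): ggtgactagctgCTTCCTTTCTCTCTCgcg
RPS13 (chr11:17077653-17077682, minus strand): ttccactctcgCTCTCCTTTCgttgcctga
RPL11 (chr1:23691791-23691820, plus strand): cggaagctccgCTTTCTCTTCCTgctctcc
RPS26 (chr12:56041903-56041932, plus strand): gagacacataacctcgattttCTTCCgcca
RPS29 (chr14:49598696-49598725, minus strand): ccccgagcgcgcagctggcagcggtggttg
RPL22L1 (chr3:170870181-170870210, minus strand): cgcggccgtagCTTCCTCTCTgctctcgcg
RPS27L (chr15:63157463-63157492, minus strand): aagttgatgccgagcgcagatcgcttgcag

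The tract stood at the start of 57 of the 62 core genes that the RefSeq promoter table held, 91.9%, against 38.4% of its 27305 genes. The 5 core genes without one were RPL17, RPL27, RPL6, RPS29 and RPS4X, named after their sequences were seen. Mitochondrial ribosomal protein genes, which serve a separate ribosome, held it at 35.3% of 68 starts, and the paralogs at 2 of 6, RPL22L1 and RPL36AL. RPL22L1 thus had the tract in the windows above and RPS27L did not. Since 11 members had more than 1 listed start, the one with the tract nearest to it was used for each gene.

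In the wider window of 250 bases before and 50 after the start, read on both strands, CCGGAAG (an ETS factor motif) was found in 35.5% of core genes and in 12.2% of all genes. AAGATGGC, the YY1 motif, was in 9.68% against 3.52%, and GGGCGG, the SP1 motif, in 58.1% against 48.3%. CACGTG, the E-box that MYC and MAX can bind, was in 6.45% of core genes against 8.77% of all. TATAAA, read on the gene's strand alone, was in 3.23% against 8.99%. Mitochondrial ribosomal protein genes held CCGGAAG at 42.6%, AAGATGGC at 30.9%, GGGCGG at 61.8% and CACGTG at 11.8%, each above the core share. For TATAAA they stood at 1.47%, below it. On the other strand CCGGAAG reads CTTCCGG, whose first bases fit the rule of the tract, so these counts can share bases near the start. A match only says that the letters are there.

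Both marker genes were high in all 12 libraries, RPL13 at 3179 to 4329 and RPL32 at 1332 to 2012 in rescaled TPM, a level per transcript length that can be compared between genes. The lines bore their defining markers: NEUROD1 was 137 ± 2.16 in H82 controls and 1.69 ± 0.366 in H211 controls (SD, n = 3), and POU2F3, the tuft-cell factor, was 2.31 ± 0.478 and 281 ± 3.91. Column totals ran from 967415 to 1111988, and read depth is unknown. Transcripts of the mitochondrial genome took 7.4 to 9.67% of the signal in H82 controls, 5.2 to 8.1% in treated H82, 9.93 to 13.4% in H211 controls and 8.74 to 13.5% in treated H211.

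Some libraries stood apart, in ways that touch the results. ORY-1001 replicate 1 of H82 was the highest of its group for 71 of 77 core genes. Low levels of 16 blood-cell genes also differed between libraries, with sums of 41.9 to 56.6 in H82 controls, 50.4 to 154 in treated H82, 43 to 268 in H211 controls and 36.2 to 52.6 in treated H211. Every library held some of them, in different mixtures. The fetal globin HBG2 was 23.9, 28.15 and 22.43 in H82 controls and 0, 0.1204 and 53.02 with the drug, and 47.39, 40.62 and 18.67 in H211 controls and 22.35, 16.84 and 0 with the drug. HBA1 and HBG1 were high and low in the same libraries, while HBB was at most 0.2366. MPO, a neutrophil enzyme, was 8.707, 8.547 and 24.26 in the treated H82 libraries and at most 0.08491 in their controls, so the mixture of these transcripts and the treatment cannot be told apart in H82. In H211, MPO or the macrophage gene LYZ was above 8 in control replicates 1 and 2 and ORY-1001 replicate 3, and both were below 1 in control replicate 3 and ORY-1001 replicates 1 and 2. Their part in the results was not tested. Drug results are also given without 4 libraries chosen by MPO or LYZ, those 3 of H211 and ORY-1001 replicate 3 of H82; the libraries kept still hold globins or, in H82 ORY-1001 replicates 1 and 2, MPO and LYZ.

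Core ribosomal protein mRNAs made up 20.7 to 29.3% of the signal of a library. Their summed level in H82 controls was 296765, 306491 and 306069, or 28.2% ± 0.866 of the signal, and in H211 controls 202894, 204138 and 213788, or 21.1% ± 0.458. All 3 H82 control libraries therefore lay above all H211 libraries, and the H82 mean was 1.46-fold the H211 mean. With ORY-1001 the sum in H82 was 325395, 286260 and 280651, with replicate 1 above the controls and replicates 2 and 3 below them. As shares of the signal these were 29.3, 27 and 27.4%, against 27.2, 28.7 and 28.7% in controls, so replicate 3 was not below every control. In treated H211 the sum was 237038, 227677 and 237806, every library above every H211 control, a 1.13-fold mean. The shares there were 23.5, 21.9 and 23.9%, against 21, 20.7 and 21.6% in controls.

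**Figure D1:**
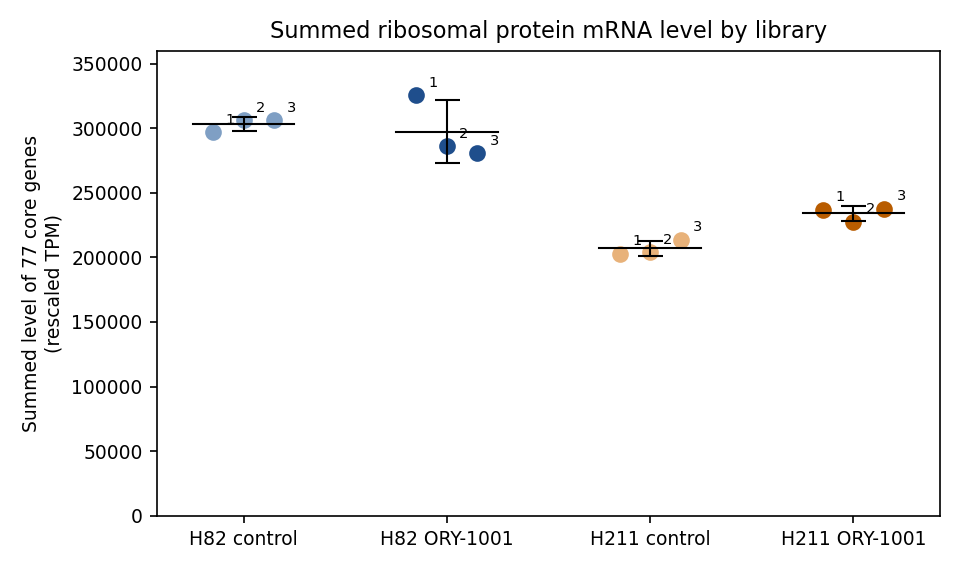
Summed level of the 77 core genes in each library (points, labelled with the replicate number), in rescaled TPM on an axis from 0, with the mean and SD of each group in black. The H82 control mean of 303108 lies above the H211 control mean of 206940, treated H211 libraries lie above their controls, and replicate 1 of treated H82 lies above the other two.

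Among the 50 genes with the highest mean, 33 were core ribosomal protein genes in H82 controls and 26 in H211 controls. RPS21 and RPS3 were among the highest by mean over the 12 libraries, at 8540 and 8280, and RPS26, RPS25 and RPL37 were the lowest, 622, 1190 and 1210. RPS3 lines the channel where mRNA enters the ribosome and RPS26 lies where it leaves. In H211 controls the highest core gene, RPS21, was at 10300 and the lowest, RPL9, at 451. With its pseudogenes (copies of the mRNA elsewhere in the genome) added, RPL9 was at 1220.

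The first comparison asked how the lines differ before treatment. Of the 77 core genes, 59 were lower in H211 than in H82, 7 were higher and 11 did not pass the test (limma, Benjamini-Hochberg adjusted p under 0.05 over all genes). The lines differ widely: among all genes tested, 40.8% were called lower in H211 and 39.7% higher, while the core genes stood at 76.6% lower and 9.09% higher. The median log2 difference of the core genes, H211 minus H82, was -0.64, against -0.02 for all genes. The split was 39 lower and 4 higher among 46 large subunit genes, and 20 lower and 3 higher among 31 small subunit genes. Differences were unequal in size, with an interquartile range from -1.17 to -0.21, and 27 genes differed by 2-fold or more.

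**Figure D2:**
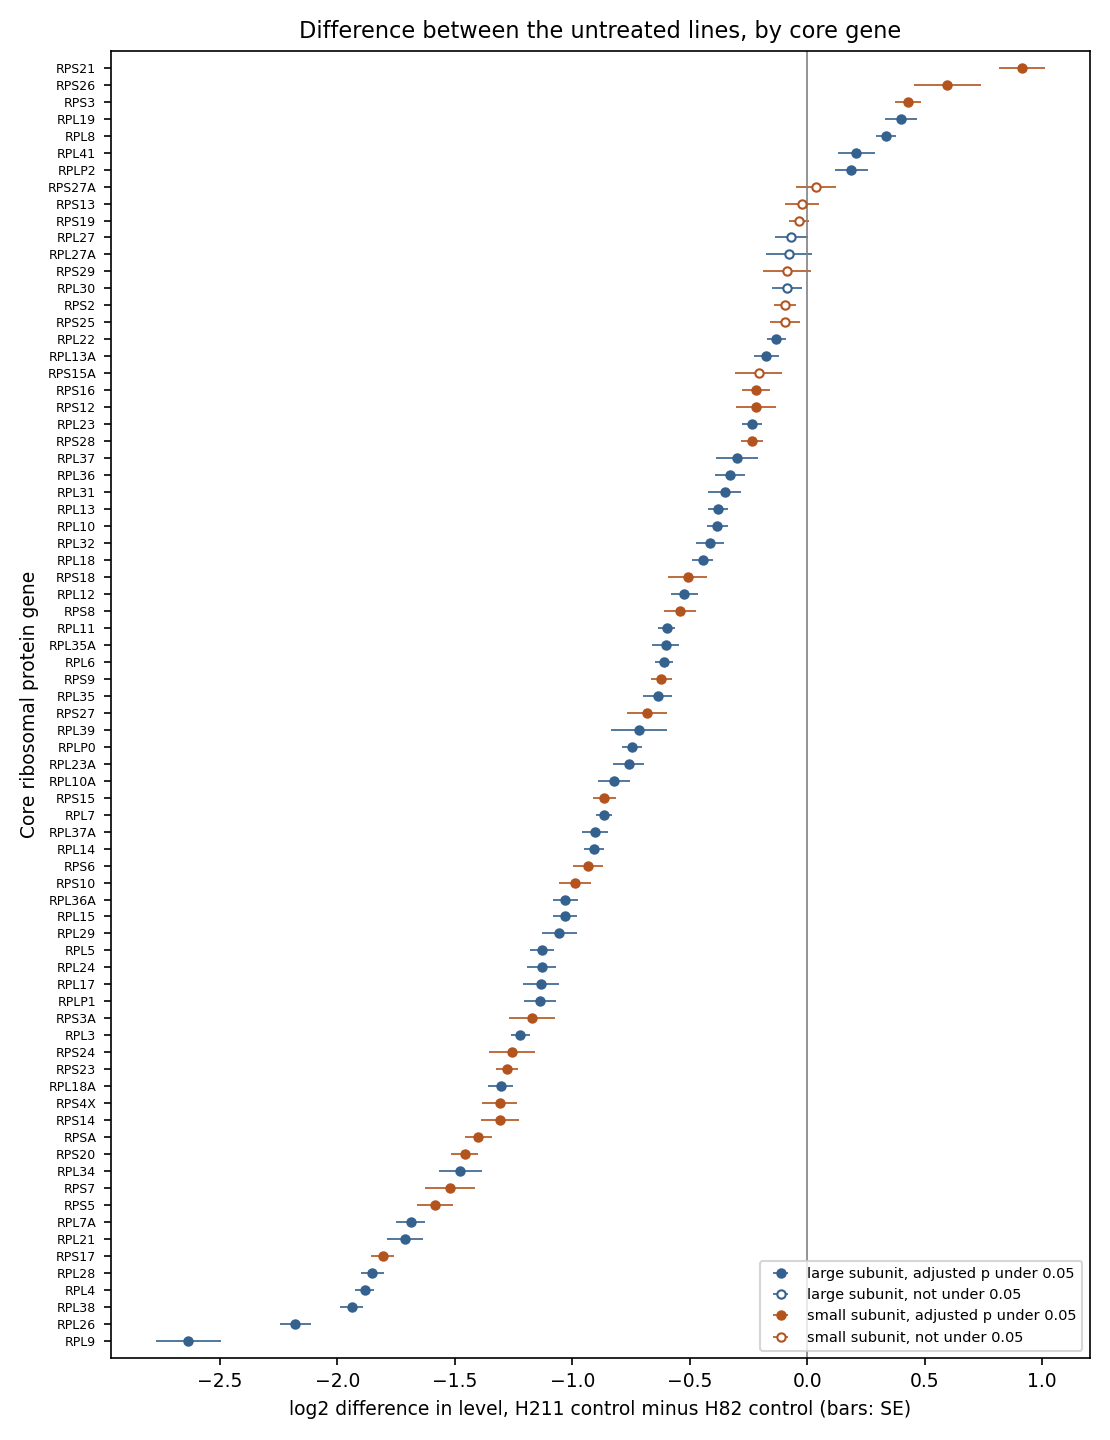
log2 difference in level between untreated H211 and H82 (x axis, with SE) by core gene (y axis, sorted; 1 of the 77 is not shown), coloured by subunit and filled where the adjusted p was under 0.05. Most genes lie left of 0, from RPL9 at -2.63, and 7 called genes lie right of it, up to RPS21 at 0.91. Pseudogene levels are not added.

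By its own symbol RPL9, a large subunit protein near the base of the stalk, differed most. Its pseudogenes held 63.1% of the joint level in H211 controls. With them added the difference was 2.36-fold, less than for RPL26, RPL38 and RPL4. It was 2685, 2847 and 2861 in H82 controls and 409.7, 455.1 and 486.9 in H211 controls. The groups were far apart, a 6.21-fold difference (log2 -2.63 ± 0.14 SE, adjusted p = 5.36e-09). RPL26, of the large subunit, was 3940, 4098 and 3998 against 846.5, 920.1 and 888, a 4.53-fold difference (adjusted p = 3.76e-11). RPL38, known for its part in translating HOX mRNAs, was 3811, 4141 and 4036 against 1043, 1020 and 1059, or 3.84-fold. RPL4, which lines the peptide exit tunnel, was 5810, 5868 and 5794 against 1549, 1595 and 1590, or 3.69-fold. In none of these 4 genes did any H211 control reach any H82 control.

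RPS21, a small subunit protein, was the core gene most in excess in H211. It was 5208, 5438 and 5704 in H82 controls and 9740, 10250 and 10840 in H211 controls, 1.89-fold higher (log2 0.91 ± 0.10 SE, adjusted p = 3.72e-06). RPS26 was 425.3, 466.2 and 453.5 against 618.3, 687.2 and 734.1, or 1.52-fold. Neither gene's groups overlapped. RPS3 (1.35-fold, adjusted p = 1.61e-05) and RPL19, which helps bridge the subunits (1.32-fold, adjusted p = 0.000155), were higher in H211 as well. The marker RPL32 was lower in H211, 1820 ± 96.9 against 1370 ± 52.9, or 1.33-fold. RPL13 was 4260 ± 79.3 against 3280 ± 109, lower in H211 by a log2 difference of -0.38, but 0.10 higher with quantile normalization.

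Of the stalk proteins, which recruit translation factors, RPLP0 was 6170 ± 166 in H82 and 3680 ± 28.8 in H211, and RPLP1 2980 ± 38.9 and 1360 ± 37.5, both lower in H211 by more than their spread. Their partner RPLP2 was 1280 ± 14.2 and 1460 ± 21.1, higher in H211 (adjusted p = 0.0249). RPL5 and RPL11 enter the ribosome together with the 5S ribosomal RNA and can bind MDM2. RPL5 was 2.19-fold higher in H82. RPL11 was 1.51-fold higher in H82 (log2 -0.60), but had a difference of 0.09 the other way with quantile normalization.

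In the small subunit, RPSA, also named for its laminin receptor, was 2.64-fold higher in H82, RPS14, the gene of the 5q- syndrome, 2.48-fold, and RPS6, the substrate of the S6 kinases, 1.91-fold, with adjusted p of 4.73e-10, 1.97e-08 and 6.2e-08. RPS19, the gene most often mutated in Diamond-Blackfan anaemia, was 4340 ± 74.8 in H82 and 4230 ± 181 in H211, and did not pass the test (adjusted p = 0.446). RPS27A, which encodes ubiquitin fused to a small subunit protein, was 2290 ± 91.5 and 2350 ± 64.8 (adjusted p = 0.701).

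Scaling bears on the smaller of these differences. When libraries were scaled to equal totals without mitochondrial transcripts, the median of all genes moved from -0.02 to 0.14, the core median from -0.64 to -0.45, and the split from 59 lower and 7 higher to 52 and 12. Of all genes, 35.1% were then lower and 45.3% higher. Quantile normalization gave 45 lower and 18 higher, where 40.4% and 40% of all genes were called.

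Position was examined for the 3 core genes with the largest difference each way, on GRCh38 with the GENCODE v29 annotation. Differences here are those of the gene's own symbol, without pseudogenes. The whole RPL9 gene lies at chr4:39452521-39458949, minus strand, and its 15 tested neighbours with a start within 1 Mb had a median log2 difference of -0.85, with 1 of them lower than RPL9 itself. RPL26, at chr17:8377516-8383250 on the minus strand, had 51 neighbours with a median of -1.07, and RPL38, at chr17:74203582-74210655 on the plus strand, 23 with a median of -1.40. Of those neighbours, 8 and 4 were lower than the ribosomal protein gene. For all 3 genes the neighbourhood was therefore also lower in H211, by less than the gene.

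The 3 genes higher in H211 had neighbours that were higher too. RPS21 (chr20:62387116-62388520, plus strand) had 25 with a median of 1.08, RPS26 (chr12:56041351-56044697, plus strand) 52 with a median of 0.37, and RPS3 (chr11:75399486-75422280, plus strand) 22 with a median of 1.49. RPS21 and RPS3 lay below that median and RPS26 above it. Over the whole core set, the neighbourhood median was above 0 for 7 of the 7 genes called higher in H211. It was also above 0 for 17 of the 59 called lower and 7 of the 11 not called. Core genes that lie close together share neighbours, so these genes are not all independent. No such share was taken over all genes tested.

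Ribosomal protein genes have many processed pseudogenes, copies of the mRNA inserted elsewhere in the genome, and reads from near-identical sequences can be divided between them. The table held 1135 pseudogene symbols, of which 60 passed the filter. For 5 core genes, RPL9, RPS2, RPL23A, RPS28 and RPS26, pseudogene symbols took more than 10% of the joint level of gene and pseudogenes in some group, so the level of these genes is uncertain.

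RPL9P9 was 71.3, 78.88 and 73.27 in H82 controls and 735, 762.1 and 806.5 in H211 controls, opposite to RPL9 and with no overlap. Summed with all RPL9 pseudogenes, the RPL9 level was 2870 in H82 and 1220 in H211, and the difference shrank from 6.21-fold to 2.36-fold. RPL9 was then no longer the core gene with the largest difference, since RPL26 with its pseudogenes stood at 4.53-fold. RPS2P5 was 13.82, 11.04 and 11 in H82 controls against 1298, 1256 and 1209 in H211 controls. RPS2 itself was 5860 ± 125 and 5490 ± 160, and its sum with pseudogenes was 1.15-fold higher in H211 where RPS2 alone was 1.07-fold higher in H82. RPL23AP42 was 1590 ± 122 in H82 controls beside RPL23A at 1670 ± 51.6, and 757 ± 42.1 in H211 controls beside 985 ± 15.7. RPS28 had RPS28P7 beside it, with pseudogenes at 45.1% of the joint level in H82 controls and 46.4% in H211 controls. With all pseudogenes added, the core sum was 306372 in H82 and 211208 in H211 controls.

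**Figure D3:**
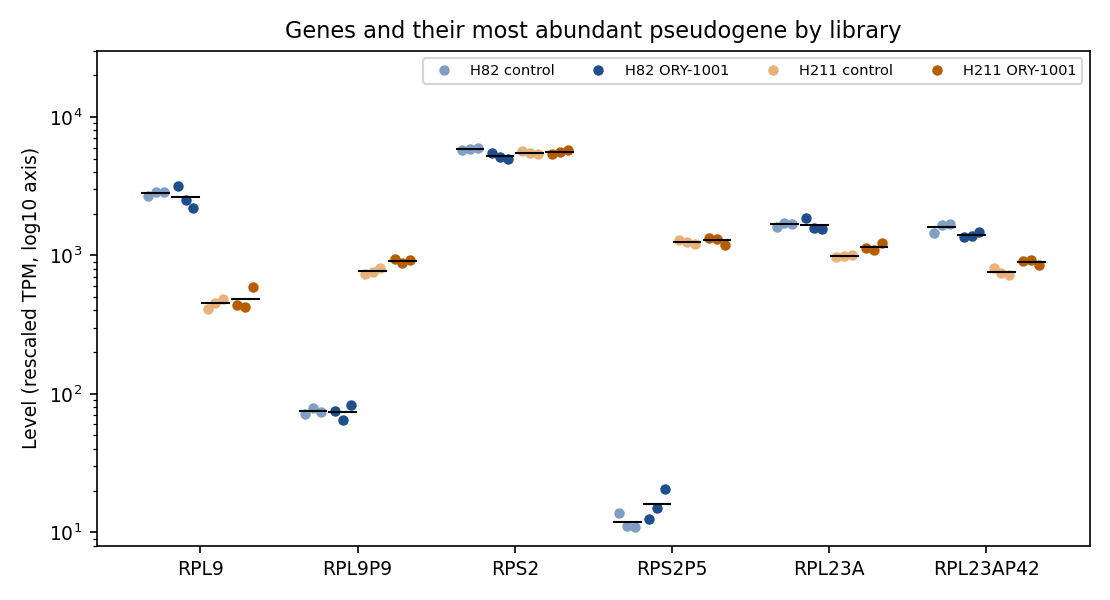
Level in each library (points; bars are means of 3 libraries) of RPL9, RPS2 and RPL23A and of the most abundant pseudogene symbol of each, on a log10 axis of rescaled TPM. RPL9P9 and RPS2P5 are higher in every H211 library than in every H82 library, while RPL9 is lower.

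The second comparison asked what ORY-1001 did in H82. Among the core genes, 16 fell, 4 rose and 57 did not pass the test, against 23.9% of all genes lower and 19.1% higher. The share of core genes that fell, 20.8%, was near that background, and their median log2 change was -0.02, as it was for all genes. No core gene changed by 2-fold; folds among called genes ran from 1.09 to 1.39. By subunit, 12 of 46 large and 4 of 31 small subunit genes fell, and 2 of each rose.

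RPS20, a small subunit protein at the head of the subunit, fell most. It was 2932, 3095 and 3121 in controls and 2555, 2342 and 2157 with the drug (log2 -0.38 ± 0.06 SE, adjusted p = 0.000312). RPL7, a large subunit protein, was 6393, 6520 and 6480 against 5185, 5060 and 5179 (log2 -0.33 ± 0.03, adjusted p = 1.98e-05). Treated libraries lay below all controls for both genes. RPL8, near the peptidyl transferase centre, was 5310 ± 188 and 4550 ± 122, and RPL13A, also known for a role in translational silencing, 8570 ± 194 and 7400 ± 481. Their adjusted p were 0.00169 and 0.00602. RPL13 fell from 4173, 4278 and 4329 to 3930, 3595 and 3767, again with no overlap (adjusted p = 0.00516), while RPL32 was 1820 ± 96.9 and 1840 ± 150.

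RPS26 was 425.3, 466.2 and 453.5 in H82 controls and 775.8, 600 and 516.1 with the drug (log2 0.47 ± 0.14, adjusted p = 0.0185). RPS29, a short zinc-binding protein of the small subunit, was 3113, 3209 and 3174 against 4997, 3870 and 3554 (log2 0.37 ± 0.10, adjusted p = 0.0119). RPL24, which reaches across to the small subunit, was 6470 ± 267 and 7420 ± 629, and RPL36 1390 ± 47.5 and 1570 ± 152. All 4 were highest in replicate 1. Without that library only RPS29 of these remained called, at a log2 change of 0.23 (adjusted p = 0.0128). The counts were 1 higher and 23 lower, where 16.3% and 21.2% of all genes were called. Without the 4 libraries chosen by MPO or LYZ (ORY-1001 replicate 3 in H82), the core median was 0.03, against -0.03 for all genes. The change was then above 0 for 45 core genes and below it for 32.

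In H211, 27 core genes rose with ORY-1001, 0 fell and 50 did not pass the test, where limma called 8.95% of all genes higher and 9.61% lower. At an unadjusted p under 0.05 (limma), 45 were higher and 0 lower, but no share of all genes was taken at that threshold. The fitted change was above 0 for 76 of 77 core genes, with a median of 0.16 on the log2 scale against -0.0021 for all genes, and RPL7A, at -0.0035, was the exception. Of the 46 large subunit genes 17 rose and of the 31 small subunit genes 10 rose. Called folds were small, 1.11 to 1.26. The share called higher was 35.1%, against 20% of 175 other genes with a mean of at least 500 and 29.9% of 77 mitochondrial ribosomal protein genes.

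RPS13, a small subunit protein, rose most in H211. It was 1424, 1490 and 1517 in controls and 1855, 1801 and 1926 with the drug (log2 0.33 ± 0.07, adjusted p = 0.00749). The treated libraries lay above all controls. RPS20 was 1106, 1084 and 1137 against 1397, 1384 and 1302, and the marker RPL32 1338, 1332 and 1426 against 1694, 1647 and 1673. Both rose by 0.29 on the log2 scale (adjusted p = 0.00489 and 0.00581), with no overlap. RPL13 was 3280 ± 109 and 3780 ± 42.1 (adjusted p = 0.00621).

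Other members rose by similar amounts. RPL11 was 1715, 1720 and 1685 in H211 controls and 2033, 1987 and 1986 with the drug (log2 0.23, adjusted p = 0.0013), while its partner RPL5 was 2020 ± 16.8 and 2030 ± 23.5 (adjusted p = 0.982). RPS19 rose from 4230 ± 181 to 5020 ± 87.6 (adjusted p = 0.00249) and RPSA from 1420 ± 67.1 to 1720 ± 32.6 (adjusted p = 0.00685). RPS6, RPS14, RPS27A and the stalk genes RPLP0, RPLP1 and RPLP2 did not pass the test. Their log2 changes lay between 0.08 for RPS6 and 0.26 for RPS27A.

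The number of calls in H211 varied with the libraries in the fit, and the median change less so. All 3 treated libraries exceeded all 3 controls for 56 of 77 core genes, and for 17.0% of all genes tested. With 1 library left out at a time the count ran from 11, without ORY-1001 replicate 1 of H211, to 48, without ORY-1001 replicate 1 of H82, whose spread enters the shared error. It was 14 without control replicate 1 and 12 without control replicate 2. Calls over all genes were fewer too, at 6.16% higher without ORY-1001 replicate 1, 6.34% without control replicate 1 and 6.36% without control replicate 2. The core median stayed between 0.1452 and 0.1922 with any 1 library left out. Without the 4 libraries chosen by MPO or LYZ, leaving H211 control replicate 3 against ORY-1001 replicates 1 and 2, it was 1, with 2.11% of all genes called higher. In that set 66 of 77 changes were still above 0, with a median of 0.11. Quantile normalization gave 10 of 77 called higher, where 8.55% of all genes were. The core median was then 0.08, against -0.0066 for all genes.

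The third comparison tested whether the change with ORY-1001 differed between the lines. For 29 core genes limma called the signed log2 change larger in H211 than in H82, and for 0 smaller. Of all genes, 17.8% and 14.3% were called in these directions. Here and below, a larger change is one with a higher signed value, so a fall in H82 alone counts as larger in H211. At an unadjusted p under 0.05 the counts were 35 and 0, again without a share of all genes at that threshold. The median difference between the changes was 0.20, against 0.01 for all genes. Of the 77 genes, 7 both fell in H82 and rose in H211, and 1, RPL24, rose in both. Another 19 passed as higher in H211 and did not pass in H82.

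RPS20 differed most, by 0.67 ± 0.08 on the log2 scale (adjusted p = 0.000121), since it fell by 0.38 in H82 and rose by 0.29 in H211. RPL12, which lies at the base of the stalk, differed by 0.46 (adjusted p = 0.00174) and RPL7 by 0.44 (adjusted p = 6.93e-05). The markers RPL13 (0.39) and RPL32 (0.28) differed as well. RPL12 was 4400 ± 52 and 3860 ± 378 in H82 and 3060 ± 49.4 and 3690 ± 87.1 in H211. RPS26 and RPS29, the largest rises in H82, had differences of -0.38 and -0.19 that did not pass the test (adjusted p = 0.175 and 0.359). Without the 4 libraries chosen by MPO or LYZ 10 core genes had a larger change in H211 and 1 a smaller one, where 11.4% and 8.2% of all genes did. With quantile normalization the counts were 10 and 3, against 16.2% and 16.1% of all genes, so that these shares of the core set were near the background or below it.

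**Figure D4:**
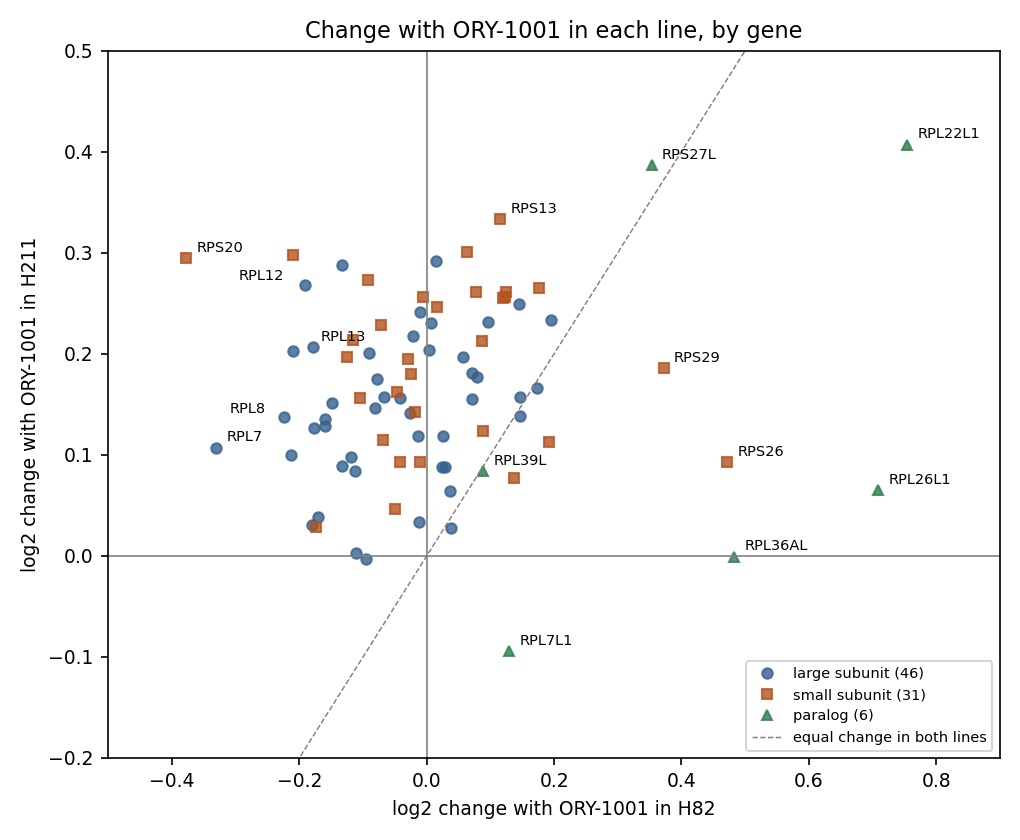
log2 change with ORY-1001 in H82 (x axis) and H211 (y axis) for 77 core genes and the 6 paralogs that were tested, with a dashed line for an equal change in both lines. Most core genes lie above 0 on the H211 axis and on either side of 0 on the H82 axis, while RPL22L1, RPL26L1 and RPL36AL lie far to the right.

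Of the 6 paralogs, 4 rose with ORY-1001 in H82 and 0 fell, where 19.1% of all genes rose and 23.9% fell. Their median log2 change was 0.42. At an unadjusted p under 0.05 (limma), for which no share of all genes was taken, 5 rose and 0 fell. RPL22L1, a paralog that RPL22 is known to repress, was 43.91, 41.29 and 40.04 in H82 controls and 85.2, 68.68 and 61.26 with the drug, a 1.72-fold mean (log2 0.75 ± 0.10, adjusted p = 0.000119). RPL26L1 was 52.65, 51.88 and 55.28 against 110.4, 83.79 and 72.93 (1.67-fold, adjusted p = 0.00132). In both, every treated library exceeded every control and replicate 1 was highest. RPL36AL was 259, 272.3 and 265.4 against 377.8, 368.6 and 368.1, with little spread (1.4-fold, adjusted p = 4.84e-06). RPS27L, a paralog of RPS27, was 50.9 ± 1.3 and 65.6 ± 8.31 (adjusted p = 0.00675).

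None of the core partners of these 4 passed the test in H82. RPL22 was 1900 ± 31.8 and 1810 ± 79.5, RPL26 4010 ± 79.6 and 4190 ± 460, RPL36A 4350 ± 47.3 and 4110 ± 271 and RPS27 5600 ± 10.3 and 5530 ± 767. RPL22L1 thus stood at 2.2% ± 0.104 of the RPL22 level in controls and 3.95% ± 0.542 with the drug, and RPL36AL at 6.11% ± 0.098 and 9.05% ± 0.457 of RPL36A. RPL10 (adjusted p = 0.0151) and RPL3 (adjusted p = 0.00426), partners of RPL10L and RPL3L, which stayed below the filter, fell in H82 by 0.16 and 0.18 on the log2 scale.

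In H211, 2 of 6 paralogs rose and 0 fell, against 8.95% and 9.61% of all genes. At an unadjusted p under 0.05 (limma), for which no share of all genes was taken, 2 rose and 0 fell. RPL22L1 was 27.53, 24.37 and 26.41 in controls and 35.25, 32.74 and 36.83 with the drug (1.34-fold, adjusted p = 0.0163), and RPS27L 25.14, 24.51 and 25.66 against 30.19, 37.06 and 32.47 (1.32-fold, adjusted p = 0.0103). Both were above all controls. Without the 4 libraries chosen by MPO or LYZ, which leaves only replicate 3 of the H211 controls, their log2 changes were 0.35 and 0.37. In H82 the changes were then 0.86 for RPL22L1, 0.84 for RPL26L1, 0.49 for RPL36AL and 0.43 for RPS27L. That set cannot part the drug from the blood-cell mixture in H82. Treated replicates 1 and 2, which it keeps, held MPO at 8.707 and 8.547, against at most 0.08491 in controls. RPL36AL was 336 ± 8.62 and 336 ± 17.7, and RPL26L1 was 65 ± 5.13 and 68.3 ± 9.67. The difference between the lines passed the test for RPL26L1 (-0.64, adjusted p = 0.0232), RPL36AL (-0.48, adjusted p = 0.000118) and RPL7L1 (-0.22, adjusted p = 0.0314), a ribosome assembly factor in spite of its name. Without those 4 libraries the difference for RPL7L1 was -0.23 and did not pass (adjusted p = 0.136). With all libraries in the fit the difference for RPL22L1 was -0.35 and did not pass (adjusted p = 0.0851).

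**Figure D5:**
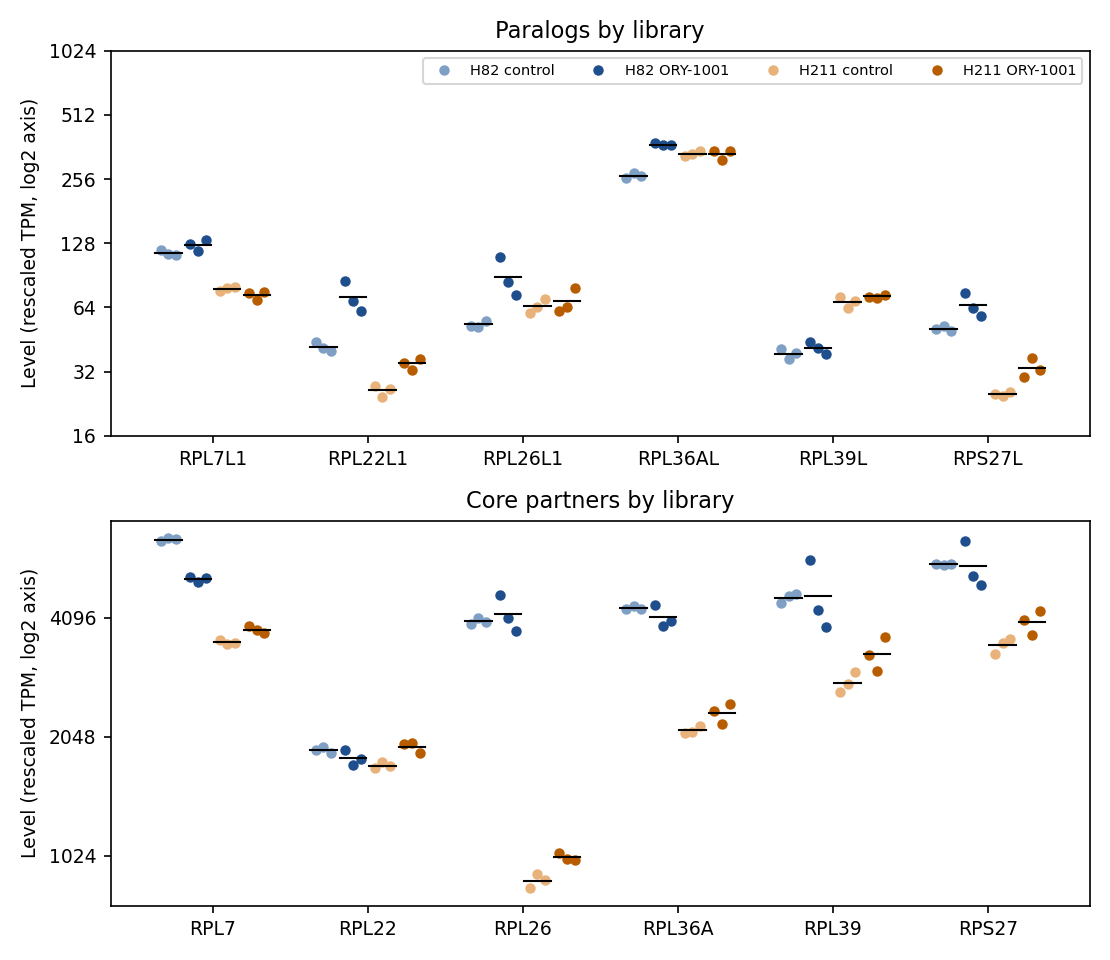
Level in each library (points; bars are means of 3 libraries) of the 6 tested paralogs and of their core partners, on log2 axes of rescaled TPM. RPL22L1, RPL26L1, RPL36AL and RPS27L are higher in treated H82 than in its controls, and RPL26 is the partner with the widest gap between the lines.

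Between the untreated lines, RPS27L was 2.03-fold, RPL22L1 1.6-fold and RPL7L1 1.47-fold higher in H82, and RPL39L 1.75-fold and RPL36AL 1.27-fold higher in H211. RPL39L, best known from male germ cells, was 40.85, 36.57 and 39.18 in H82 controls and 71.31, 63.95 and 68.66 in H211 controls, with no overlap (adjusted p = 1.36e-07). Its partner RPL39, a very short protein of the exit tunnel, went the other way, 4610 ± 135 against 2810 ± 165. RPL26L1 made up 1.33% of the RPL26 level in H82 controls and 7.34% in H211 controls, where RPL26 was low.

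Core genes with and without the tract were counted separately. Of 57 with it, 19 rose in H211, against 2 of 5 without it, RPL27 and RPL6, and 6 of 15 that the promoter table did not hold. In H82, 9 of 57 fell and 3 rose, and of the 5 without a tract 0 fell and 1, RPS29, rose. Of the 15 that the promoter table did not hold, 7 fell in H82 and 0 rose. RPS26, RPL24 and RPL36, which also rose in H82, have the tract. These counts are too small to set the groups apart.

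Genes that encode ribosomal proteins as fusions under other names lie outside the symbol rule. FAU, a ubiquitin-like protein fused to a small subunit protein, was higher in H211 controls (811 ± 22.2 against 529 ± 8.48) and rose in both lines, by 0.38 in H82 (adjusted p = 0.00225) and 0.29 in H211 (adjusted p = 0.0245).

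Of 22 other listed TOP transcripts, which include elongation factors, subunits of initiation factor 3 and NPM1, 16 fell in H82 and 3 rose. Of all genes 23.9% fell and 19.1% rose, and the median of the 22 was -0.23. EIF4B, which helps the helicase of initiation, fell from 672.2, 656.6 and 634.6 to 399.5, 414.9 and 430.7, and EIF3E from 705 ± 9.45 to 471 ± 26.3 (adjusted p = 8.08e-07 and 1.4e-06). In H211 6 rose and 1, EIF4B, fell (27.3% and 4.55%, against 8.95% and 9.61%), among them NPM1 (log2 0.20) and TPT1 (0.30). The signed log2 change was higher in H211 than in H82 for 18 of the 22 and lower for 1, against 17.8% and 14.3% of all genes. Since 16 fell in H82, this counts falls there as well as rises in H211. Between controls 15 were lower in H211 and 5 higher, or 68.2% and 22.7% against 40.8% and 39.7% of all genes. NPM1 was at -1.75 and RACK1, a scaffold on the small subunit, at -1.33.

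Of 77 mitochondrial ribosomal protein genes, 53 rose in H82 and 3 fell, with a median of 0.26, against 19.1% and 23.9% of all genes. MRPL4 was 103 ± 1.73 and 152 ± 4.55, and MRPL35 27.4 ± 1.41 and 53.2 ± 3.17. In H211, 23 rose and 0 fell, against 8.95% and 9.61%, MRPL12 by 0.35 and MRPS12 by 0.34. At an unadjusted p under 0.05 (limma), for which no share of all genes was taken, 37 rose and 0 fell. The signed log2 change was lower in H211 for 25 and higher for 4, against 14.3% and 17.8% of all genes. Between controls 33 were higher and 31 lower in H211, or 42.9% and 40.3% against 39.7% and 40.8% of all genes, and MRPL13 and MRPL21 were higher by 2.12 and 1.83.

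Of 45 ribosome biogenesis factors, which include genes of RNA polymerase I transcription, 22 rose and 3 fell in H82, and 13 rose and 1 fell in H211. These are 48.9% and 6.67% in H82, against 19.1% and 23.9% of all genes, and 28.9% and 2.22% in H211, against 8.95% and 9.61%. RRP9, a subunit of the U3 complex that cuts pre-ribosomal RNA, was 93.3 ± 2.89 and 134 ± 4.89 in H82 and 28.6 ± 1.56 and 38.2 ± 1.29 in H211, and MRTO4, which precedes the stalk protein on the maturing subunit, rose by 0.53 and 0.34. BOP1 and NOP56 differed most between the lines: BOP1 fell by 0.22 in H82 and rose by 0.32 in H211, and NOP56 rose by 0.63 in H82 and had a change of -0.13 in H211 that did not pass. Among initiation factors 8 of 21 rose and 3 fell in H82 (38.1% and 14.3%), with EIF5 up by 1.43 and EIF1 at -0.84, and 7 rose and 2 fell in H211 (33.3% and 9.52%), where EIF6, which keeps the subunits apart, rose by 0.20.

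Of 23 regulators of these mRNAs, 8 rose and 2 fell in H82, and 3 rose and 2 fell in H211. In H211 these shares, 13% and 8.7%, were near the 8.95% and 9.61% of all genes, and in H82 they were 34.8% and 8.7% against 19.1% and 23.9%. DDIT4, an inhibitor of mTORC1, was 31.98, 29.18 and 26.64 in H82 controls and 219.5, 203.9 and 205 with the drug, and 18.11, 18.06 and 19.82 against 11.08, 10.91 and 12.71 in H211. Its change thus had opposite directions (difference -3.45, adjusted p = 6.57e-09). SESN2, also an inhibitor of mTORC1, was 8.375, 7.59 and 7.994 in H82 controls and 1.516, 1.497 and 1.858 with the drug (adjusted p = 1.04e-07), and fell by 0.60 on the log2 scale in H211 (adjusted p = 0.000829). TSC1, a subunit of the complex that restrains mTORC1, was 5.552, 4.4 and 4.862 in H211 controls and 11.63, 10.1 and 9.39 with the drug (adjusted p = 9.78e-05), and did not pass in H82 (adjusted p = 0.708). These inhibitors therefore did not move in one direction. MYC was 1914, 1945 and 1885 in H82 controls and 443.5, 424.9 and 411.2 in H211 controls, a log2 difference of -2.16. With the drug it was 583 ± 33.5 in H211 (adjusted p = 0.000129) and 1770 ± 90.7 in H82 (adjusted p = 0.0868). A part of MYC in the levels of the core set was not tested. LARP1 did not pass the test with the drug in either line, and neither did KDM1A, which encodes LSD1 itself, at 184 to 190 in all 4 group means.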

How the data were processed

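Oligo(dT)-enriched RNA gave 12 libraries, and groups and replicate numbers come from the sample labels. Values in the deposited table are a signal on the TPM scale for 56508 symbols. The authors appear to have rescaled it between libraries, since column totals differ; depth is unknown, so no counting error is given. The submitters' processing notes list hg38, R 4.0.4, sleuth 0.30.0, Salmon 1.1.0, DESeq2, featureCounts (Subread 1.5.2), STAR 2.5.2b and Trimmomatic 0.36, without their roles. The annotation release and the treatment of reads shared between genes are not given in the sources used here. Another 27 symbols had become dates and were not named. Tests planned for TPM were applied to this rescaled TPM.

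The scale was log2(TPM + 1), which understates changes of low genes, for 15456 genes left by a filter (1 or more in 3 or more libraries). limma 3.58.1 (R 4.3.3) fitted 4 group means over 12 libraries, using eBayes with a mean-variance trend. Two-sided p-values were adjusted over these genes by Benjamini-Hochberg, with calls at an adjusted p under 0.05. The fit was tested on simulated data. Beside means, folds are ratios of group means and ± is the SD of 3 libraries; after a log2 value, ± is the SE. Promoter windows come from RefSeq (GRCh38.p14), which held 62 of the 77 core genes and the 6 tested paralogs, and were read with Python 3.11.15.

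The members and lists were chosen with earlier results of these data known. Named were the markers, the paralogs with their partners, the stalk genes and RPSA, RPS6, RPS19, RPS14, RPL5, RPL11 and RPS27A. In each contrast the called core genes that moved furthest, up to 4 each way, were added (higher group mean 5 or more), with the 3 highest and 3 lowest levels and up to 2 genes per other list by smallest p. Position was examined for the 3 largest control differences each way. RPL7A, LARP1, KDM1A, the line markers, the blood-cell genes and the genes named for pseudogenes or lack of a tract fall outside this rule and were named after their values were seen. Some genes that these rules reach are not reported here. Alternatives changed the pseudocount, filter, scaling, variance model, weights, replicate block and libraries.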

Additional observations from a re-analysis of the deposited data

Results flagged for a closer look

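The change with ORY-1001 differed between the lines by the test of the difference itself for 29 core genes. Each had a higher signed log2 change in H211 than in H82. Where a gene fell in H82, the size of its change need not be larger in H211. Among the named members the differences, H211 minus H82 on the log2 scale, were 0.67 for RPS20, 0.46 for RPL12 and 0.44 for RPL7, then 0.39 for RPL13, 0.36 for RPL8 and RPSA, 0.31 for RPL13A, 0.29 for RPL10 and 0.28 for RPL32. Smaller ones were 0.23 for RPS19 and RPL36A, 0.22 for RPL11, RPL22 and RPLP0, and 0.21 for RPL3 and RPL4. In 3 paralogs the change was smaller in H211, by -0.64 for RPL26L1, -0.48 for RPL36AL and -0.22 for RPL7L1; the last did not pass without the 4 libraries chosen by MPO or LYZ (adjusted p = 0.136).

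Within the lines, RPL7, RPL8, RPL13A, RPL10, RPL3, RPL4 and RPLP0 passed the test as lower in H82 and did not pass in H211. RPL11, RPL22, RPL32, RPS19 and RPSA passed as higher in H211 and did not pass in H82. RPS20, RPL12 and RPL13 passed in both lines with opposite signs. RPL36A passed in neither line alone.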

How the results depend on the processing

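Of 25 alternatives, 12 left out 1 library each. Across those 12, core genes called higher ranged from 1 to 7 in H82 and 11 to 48 in H211. They ranged from 24 to 53 for the difference and 5 to 7 between controls. Of all genes, 16.3 to 19.3%, 6.16 to 9.91%, 15.4 to 16.7% and 38.4 to 40.1% were called higher, in that order. Core genes called lower ranged from 10 to 23 in H82 and 58 to 62 between controls and were 0 otherwise. The share of all genes called lower was 20.5 to 24% in H82 and 39.3 to 41.2% between controls. It was 6.43 to 9.95% in H211 and 12.4 to 13.5% for the difference. The core median ranged from -0.0998 to 0.0272 in H82, from 0.1452 to 0.1922 in H211, from 0.1412 to 0.2575 for the difference and from -0.6808 to -0.6045 between controls. In H82 the count of rises was 1 without control replicate 1 or ORY-1001 replicate 1, 2 without control replicate 3 and 7 without ORY-1001 replicate 3, and that of falls was 10 without control replicate 2 or 3. Where a group is left with 1 library, that library is assumed to vary like the others.

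With quantile normalization 9 core genes rose in H82, 10 in H211, the difference had 10 larger and 3 smaller, and 18 were higher in H211 controls. The shares of all genes, in the same order, were 21.3%, 8.55%, 16.2%, 16.1% and 40%. The medians were 0.0794 in H211, 0.0784 for the difference and -0.3408 between controls. The summed levels were 275784 in H82 controls, 234221 in H211 controls and 250693 in treated H211. With totals without mitochondrial transcripts 12 were higher in H211 controls, where 45.3% of all genes were. The median was then -0.4536, and the sums in those 3 groups were 288457, 223606 and 242443. Totals without the ribosomal protein genes gave 17 rises in H211 and 19 larger changes, where 6.92% and 15.3% of all genes were called. Without the 4 libraries chosen by MPO or LYZ the core median was 0.0272 in H82, 0.106 in H211 and 0.0767 for the difference. The medians of all genes were then -0.0297, 0 and 0.0286. The summed level was 213788 in the H211 control that was left. Without a filter 2 rose in H82 and 17 in H211, against 9.12% and 3.75% of all genes. Library weights gave 43 rises in H211, against 10.5%. A fit of the contrast's libraries alone gave 1 rise and 6 falls in H82, against 17.7% and 21.9%. Median-of-ratios scaling gave a sum of 296594 in H82 controls. The cause of these shifts was not tested.

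Between controls the sign turned with quantile normalization for RPL11 (0.0897), RPL13 (0.1021), RPL22 (0.4228), RPS13 (0.4665), RPS19 (0.3594) and RPS29 (0.3992), and without mitochondrial totals for RPL13A (0.0101), RPL22 (0.0519), RPS13 (0.1609) and RPS19 (0.147). Of the named members, 9 of 18 called in H82, 0 of 13 in H211, 5 of 19 for the difference and 29 of 36 between controls were called under every alternative. The 9 in H82 were RPL13, RPL22L1, RPL26L1, RPL3, RPL36AL, RPL7, RPL8, RPS20 and RPS27L.

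The replicate numbers did not pair the libraries: over 18 pairs of equal number the correlation of deviations lay between -0.0805 and 0.058. With the replicate block the core counts were 3 higher and 14 lower in H82, and 20 and 0 in H211. They were 26 and 0 for the difference, and 7 and 59 between controls. Of all genes, 18.6% and 23% were called higher and lower in H82, and 7.71% and 8.44% in H211. The shares were 16.8% and 13.6% for the difference, and 39.6% and 40.7% between controls.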
